A study of Homo sapiens with 36 samples.

Results

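The 42 genes described here are genes of cell adhesion, of the mesenchymal state and of tissue invasion, and they were taken as a list of symbols with such roles, drawn up with earlier results of these data known, so that shares called among them are descriptions of this list. All 42 were measured, among the 20046 genes that the array read, and each was represented by its brightest probe, by mean log2 intensity. They comprised 5 transcription factors of the epithelial-to-mesenchymal transition (EMT), 4 mesenchymal and contractile markers, 5 cadherins and genes of epithelial identity, 4 matrix proteins, 7 proteases, protease receptors or inhibitors, 7 integrins and CD44, 4 other surface receptors or ligands, 4 membrane organisers and 2 actin linkers.

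Expression was measured on Illumina HT-12 arrays in 2 human prostate cancer lines: c42b, a castration-resistant line, and LNCaP, the androgen-dependent line from which c42b was derived. Cells of each line stably carried 1 of 4 vectors: a short hairpin against GABPα (KD), a GABPα expression vector (OE), the empty expression vector (EV) or a non-targeting hairpin (NT). GABPα, the product of GABPA, binds DNA as an ETS protein and forms the transcription factor GABP with a partner subunit. All cells were held for 48 h in charcoal-stripped serum, which is depleted of steroid hormones, and then received 1 nM R1881, a synthetic androgen, or its ethanol vehicle. How long this treatment lasted was not given in the sources used here. Every combination of line, vector and arm was represented by 2 samples, 32 in all. The study described its GABPα OE cells as doxycycline-inducible, and whether doxycycline was given to the cells on these arrays was not stated in the labels, nor was it given whether cells of a vector on these arrays came from 1 clone or a pool, although a figure legend of the study calls the hairpin cells of its xenografts clones. The study's methods also name the vector backbones of OE and KD cells in the order opposite to the labels, in which pLVX marks the OE and EV cells, and the labels were followed in pairing each group with its control. KD was compared with NT cells, OE with EV cells and EV with NT cells, each with 4 samples a side over both arms. R1881 was compared with vehicle over the EV and NT cells (4 samples a side), and c42b with LNCaP over the same control cells (8 a side).

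EMT is the process in which epithelial cells loosen their E-cadherin junctions, take up mesenchymal proteins such as vimentin and become more motile, under transcription factors of the SNAI, TWIST and ZEB families. Integrins and syndecans anchor cells to the extracellular matrix, metalloproteinases and the urokinase system degrade it, and proteins such as ezrin and L-plastin couple the membrane to, or bundle, actin filaments. In prostate cancer, loss of junctions and gain of protease activity are associated with local invasion and metastasis.

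The GABPA probe, read first as a check of the vectors, averaged 7.5 ± 0.24 log2 in KD cells and 7.96 ± 0.14 log2 in NT cells of c42b (SD, n = 4 each; adjusted p = 0.0215, limma). In LNCaP it averaged 7.70 ± 0.09 in KD and 8.08 ± 0.18 in NT cells, without overlap but not called (adjusted p = 0.101, limma). It was not higher in the cells labelled as OE, with 8.18 in OE and 8.15 in EV cells of c42b (adjusted p = 0.978, limma) and 8.01 in OE and 8.06 in EV cells of LNCaP (adjusted p = 0.956, limma), so those samples are called cells labelled OE below. The study reports that it checked OE and KD of GABPα by western blotting and PCR. Whether the array probe reads the transcript made from the OE vector was not tested. A level of 7.80 log2, the 95th percentile of 457 olfactory receptor probes, was taken as background, and 48.2% of all genes had a mean above it. The GABPA probe lay near this level, which limits it as a check. In c42b 0 of 4 KD and 3 of 4 NT samples were above it, a fall of at least 1.11-fold with KD set at background. In LNCaP 1 of 4 KD and 4 of 4 NT samples were above it. All 8 luminal prostate markers measured lay above background (means of 9.33 to 12.97), 0 of 4 basal and 0 of 6 endothelial markers did, and so did 4 of 10 fibroblast markers, the highest at 7.99, and 1 of 4 leukocyte markers, at 7.85. The median over all genes differed from 0 by less than the standard error of a single gene in each comparison, and that standard error had a median of 0.0969 log2 where 4 samples were set against 4.

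Of the 42 genes, 27 had a mean above background, 13 were above it in all 32 samples and 7 in none (SNAI1, ZEB1, CDH2, ESRP2, MMP2, MMP14 and ITGA6). N-cadherin (CDH2), the cadherin often gained in EMT, read between 6.55 and 7.19, and ZEB1, a repressor of E-cadherin, between 6.19 and 6.81. The genes above background in all samples included the epithelial adhesion genes CDH1 (11.17 to 12.43) and EPCAM (11.77 to 12.73) as well as vimentin (VIM, 9.25 to 10.60) and integrin β1 (ITGB1, 11.76 to 12.67). The range over the 32 samples was widest for THBS1, the gene of the matricellular protein thrombospondin-1, from 6.85 to 10.67 (SD 1.25), and wide for TM4SF1 (SD 0.94), LCP1 (SD 0.78) and NRP1 (SD 0.69). An adjusted p under 0.05 (limma, Benjamini-Hochberg over all probes) is termed a call, and 20 of the 42 genes were called in at least 1 of the 9 comparisons between groups, EZR and JAG1 in 6 each, where 37.8% of all genes were called in at least 1. That is 47.6% of the 42, and among genes above background 74.1% of the 27, against 67% of all. The other 22 were called in none, among them PLAU, CD44, FN1, ITGB1, ITGAV, MMP2, MMP14, SNAI1 and both ZEB genes.

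**Figure D1:**
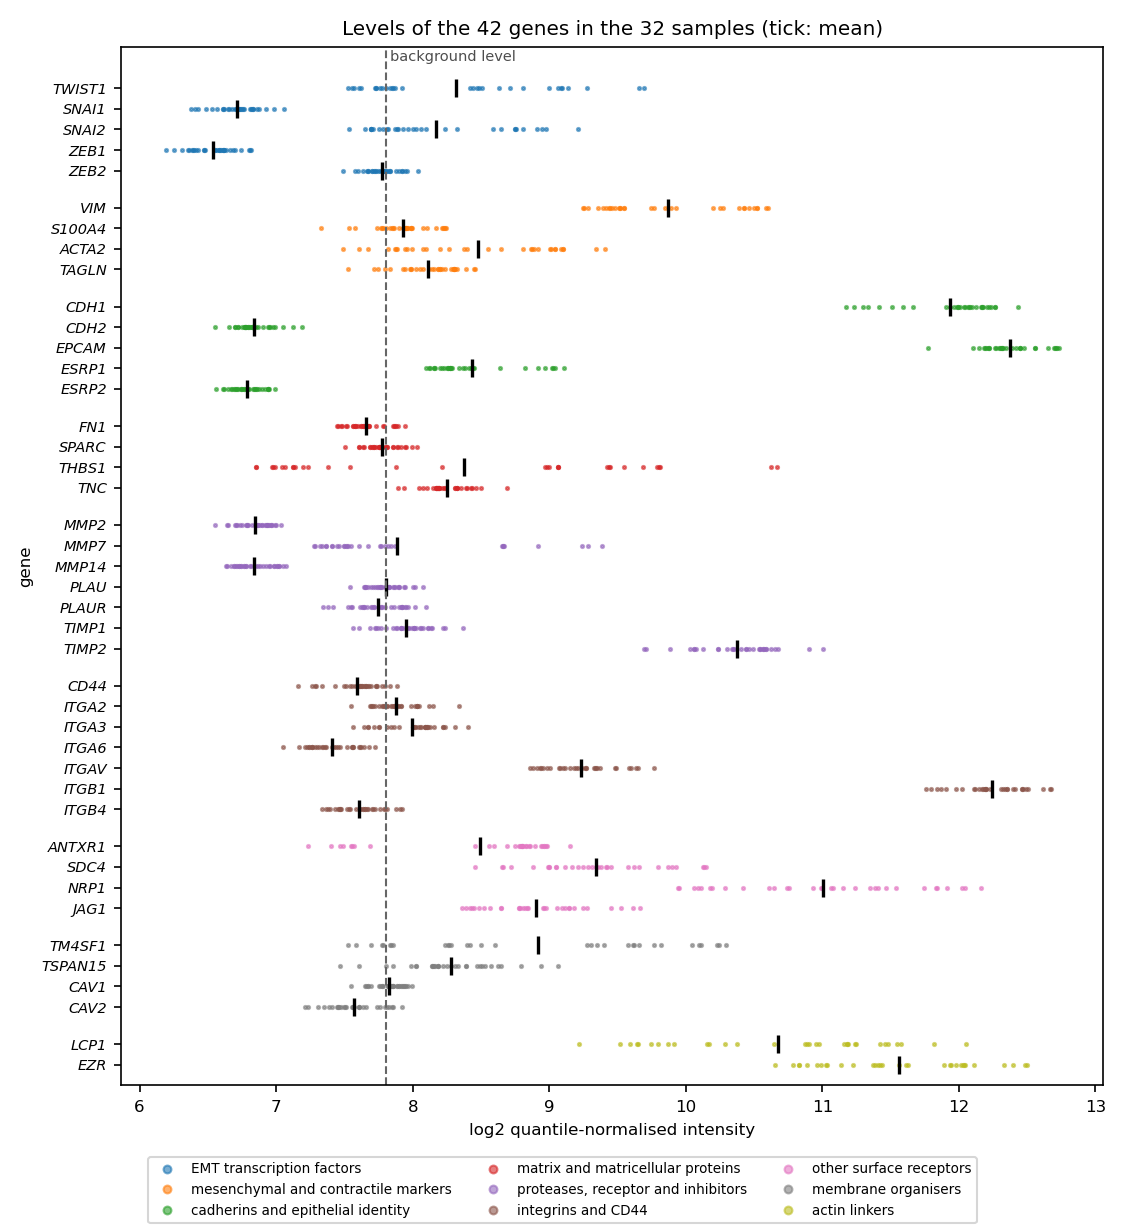
Level of each of the 42 genes in the 32 samples, as log2 quantile-normalised intensity on the x axis, with genes on the y axis grouped by role. Points are samples, black ticks are means over the 32 samples, and the dashed line is the background level of 7.80. THBS1, TM4SF1, LCP1 and NRP1 spread widely, and SNAI1, ZEB1, CDH2, ESRP2, MMP2, MMP14 and ITGA6 lie left of the line in every sample. Probes of different genes are not on a common scale.

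KD against NT cells compared cells with the hairpin against GABPα and cells with the non-targeting hairpin. Loss of GABPα and other differences between these stable cell populations cannot be told apart in this comparison. In c42b, 9 of the 42 (21.4%) were called, 5 higher and 4 lower in KD, where 3.25% of all genes were called (1.72% higher and 1.53% lower). In LNCaP 5 (11.9%) were called, 2 higher and 3 lower, where 2.46% of all genes were (1.27% higher and 1.2% lower). Among the 27 genes with a mean above background the shares were 33.3% in c42b and 18.5% in LNCaP, against 6.29% and 4.69% of all genes above background. The median difference of the 42 genes was 0.00 log2 in c42b and 0.06 in LNCaP, with called genes in both directions. Below, the values of 4 samples of a group are given with the 2 samples of the R1881 arm before the 2 of the vehicle arm. In extracts of whole cultures, fewer cells that express a gene and less RNA per cell cannot be told apart. The study's methods describe the RNA as from biological triplicates, while the labels give 2 samples a group and do not say which cultures they came from, so the p-values measure the spread between these samples, with technical repeat arrays averaged.

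The surface receptor gene ANTXR1 had the lowest adjusted p of the 42 in both lines. ANTXR1 encodes anthrax toxin receptor 1, a receptor that binds collagen and links it to actin. In c42b it read 7.46, 7.57, 7.55 and 7.49 log2 in KD cells, against 8.83, 8.79, 8.95 and 8.90 in NT cells. In LNCaP it read 7.23, 7.40, 7.55 and 7.69 in KD cells, against 8.56, 8.46, 8.6 and 8.69 in NT cells. The KD samples of both lines all lay below background and below every control sample, and the EV samples, at 8.80 to 9.15 in c42b and 8.75 to 8.80 in LNCaP, lay with NT. ANTXR1 fell by 1.35 ± 0.077 log2 (SE, adjusted p = 2.56e-13, limma) in c42b and by 1.11 ± 0.077 log2 (adjusted p = 2.47e-11, limma) in LNCaP. Because KD cells were below background these are at least 2.09-fold lower in c42b and at least 1.71-fold lower in LNCaP, a bound that sets KD samples at the background level. A dimmer probe of the gene moved the same way by less and was not called (-0.29 in c42b, adjusted p = 0.255; -0.22 in LNCaP, adjusted p = 0.499, limma).

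THBS1 moved in opposite directions in the 2 lines. Thrombospondin-1 is a secreted glycoprotein that modulates adhesion, angiogenesis and TGF-β activation. In c42b it read 9.55, 9.68, 8.97 and 9.0 in KD cells, against 10.63, 10.67, 9.80 and 9.79 in NT cells, without overlap, and fell by 0.92 ± 0.096 log2 (1.89-fold; adjusted p = 1.28e-07, limma). In LNCaP it read 7.88, 8.22, 7.23 and 7.20 in KD cells, against 7.54, 7.13, 6.85 and 6.97 in NT cells, which were all below background. Only the 2 KD samples of the R1881 arm were above it. That difference of 0.51 ± 0.096 log2 was called (adjusted p = 0.00203, limma) and is given no fold. The difference between the lines was itself called, where 0.988% of all genes and 2 of the 42 (THBS1 and VIM) were, at -1.43 ± 0.14 log2 for c42b minus LNCaP (adjusted p = 3.36e-07, limma). The EV cells of c42b, at 9.81, 9.44, 8.99 and 9.06, and the cells labelled OE, at 9.43, 9.44, 9.06 and 9.06, lay below the NT cells of the same arm and beside KD, although across arms the highest EV sample passed the lowest NT sample. KD was not tested against EV.

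VIM, the gene of the intermediate filament protein vimentin and a standard mesenchymal marker, fell in KD cells of c42b and was not called in LNCaP. It read 9.85, 9.89, 9.93 and 9.77 in KD cells, against 10.43, 10.42, 10.59 and 10.50 in NT cells of c42b, and the groups did not overlap. The decrease was 0.63 ± 0.094 log2 (1.54-fold; adjusted p = 8.99e-05, limma), with -0.56 in the R1881 arm and -0.70 in the vehicle arm. In LNCaP VIM read 9.52, 9.44, 9.25 and 9.74 in KD cells, against 9.45, 9.36, 9.42 and 9.25 in NT cells, with overlap and a difference of 0.12 ± 0.094 log2 (adjusted p = 0.809, limma). The 2 lines differed, by -0.75 ± 0.13 log2 (adjusted p = 0.00708, limma), and the second probe of VIM gave -0.97 in c42b and a difference between lines of -1.08, both called. Here EV cells of c42b (10.39, 10.52, 10.46 and 10.60) lay with NT.

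GABP binds DNA at the ETS core GGAA, and the promoters of ANTXR1, THBS1 and VIM are shown because these 3 genes had the lowest adjusted p among those that fell under KD in c42b. Each is the 250 bases before the transcription start in RefSeq on GRCh38.p14, 5′ to 3′ on the gene's strand, with GGAA and its reverse complement TTCC in capitals.
ANTXR1, chr2:69012894-69013143, + strand: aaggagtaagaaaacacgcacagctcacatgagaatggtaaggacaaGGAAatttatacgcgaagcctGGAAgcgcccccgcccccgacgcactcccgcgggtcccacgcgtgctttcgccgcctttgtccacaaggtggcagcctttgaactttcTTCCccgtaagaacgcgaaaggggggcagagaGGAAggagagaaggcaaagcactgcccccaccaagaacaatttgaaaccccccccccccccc
THBS1, chr15:39580829-39581078, + strand: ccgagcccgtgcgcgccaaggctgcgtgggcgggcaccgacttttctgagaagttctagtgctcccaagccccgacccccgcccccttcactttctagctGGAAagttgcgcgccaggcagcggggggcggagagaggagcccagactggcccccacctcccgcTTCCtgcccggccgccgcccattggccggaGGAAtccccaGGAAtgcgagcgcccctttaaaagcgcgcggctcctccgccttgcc
VIM, chr10:17227991-17228240, + strand: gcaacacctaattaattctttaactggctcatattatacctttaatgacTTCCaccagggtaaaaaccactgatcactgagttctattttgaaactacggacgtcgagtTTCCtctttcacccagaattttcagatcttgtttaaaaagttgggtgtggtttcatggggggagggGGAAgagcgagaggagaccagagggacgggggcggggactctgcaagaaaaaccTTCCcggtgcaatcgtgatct
Each window held 4 matches on either strand. GGAA or TTCC occurred in 92.7% of the 35116 promoter windows of this length, with a median of 3 matches, and in 27 of the 29 genes of the 42 that had a window (93.1%). The longer ETS sequence CCGGAAG or its reverse complement CTTCCGG, of which GGAA is part, was in 8.52% of all windows and in 1 of the 29 genes, ITGA6 (3.45%), and CCGGAAGT or ACTTCCGG was in 3.42% of all windows and in 0 of the 29. These are counts of letters in the windows and no measure of binding.

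NRP1, JAG1 and SDC4, the other surface receptors and ligands, were each called under KD in 1 line, and for none of them was the difference between the lines called. NRP1, a co-receptor for vascular endothelial growth factor and semaphorins, read 10.61, 10.42, 10.93 and 10.74 in KD cells, against 11.39, 11.15, 11.40 and 11.47 in NT cells of LNCaP, and fell by 0.68 ± 0.090 log2 (1.6-fold; adjusted p = 1.27e-05, limma) without overlap. In c42b it read 9.94 to 10.11 in KD cells, against 10.06 to 10.29 in NT cells, lower on average but not called (-0.16 ± 0.090, adjusted p = 0.674, limma). The same KD samples of NRP1 lay below every EV sample of c42b (10.64 to 11.35), a difference that was not tested. JAG1, a ligand of Notch receptors, read 8.78, 8.65, 8.43 and 8.49 in KD cells, against 9.14, 9.12, 8.84 and 8.95 in NT cells of c42b, and fell by 0.42 ± 0.076 log2 (adjusted p = 0.00109, limma). In LNCaP JAG1 read 9.06, 8.96, 8.52 and 8.36 in KD cells, against 9.24, 9.28, 8.78 and 8.65 in NT cells, lower in both arms but not called (-0.26 ± 0.076, adjusted p = 0.109, limma). In c42b the KD samples of JAG1 lay below all NT samples but within the range of the EV samples (8.42 to 8.84). SDC4, syndecan-4 of focal adhesions, rose in c42b by 0.38 ± 0.088 log2 (KD 9.12 to 9.62, NT 8.88 to 9.21, overlapping; adjusted p = 0.0203, limma), a call lost, with adjusted p of 0.0527 to 0.154, without KD R1881 replicate 1, either KD vehicle sample, NT R1881 replicate 2 or NT vehicle replicate 1.

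Genes that rose in KD cells of c42b included both actin linkers. LCP1, the actin-bundling protein L-plastin, read 10.87, 10.97, 10.65 and 10.38 in KD cells, against 10.15, 10.29, 10.17 and 9.59 in NT cells, and rose by 0.67 ± 0.10 log2 (1.59-fold; adjusted p = 0.000137, limma) without overlap. EZR, the membrane-to-actin linker ezrin, read 11.40, 11.38, 11.03 and 11.14 in KD cells, against 10.89, 11.03, 10.65 and 10.78 in NT cells, and rose by 0.40 ± 0.081 log2 (adjusted p = 0.00491, limma). The lowest KD sample of EZR equalled the highest NT sample to 2 decimals, although within each arm the KD samples were higher. In LNCaP neither was called, with 0.36 ± 0.10 for LCP1 (adjusted p = 0.0986, limma).

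ACTA2, smooth muscle α-actin and a contractile marker, read 8.40, 8.37, 8.2 and 8.27 in KD cells, against 7.61, 7.68, 7.49 and 7.82 in NT cells of c42b. All KD samples and 1 NT sample were above background, and ACTA2 rose by 0.66 ± 0.089 log2 (adjusted p = 1.58e-05, limma), which is given no fold because NT lay mostly below background. TM4SF1, a multi-pass membrane protein of the cell surface, read 10.29, 10.24, 10.10 and 10.04 in KD cells, against 9.77, 9.66, 9.82 and 9.58 in NT cells, and rose by 0.46 ± 0.084 log2 (1.38-fold; adjusted p = 0.00137, limma) without overlap. In LNCaP TM4SF1 read 8.50, 8.26, 8.28 and 8.42 in KD cells, against 8.40, 8.6, 8.24 and 8.27 in NT cells, a difference of -0.01 ± 0.084 log2 (adjusted p = 0.992, limma). On its second probe SNAI2 was also called lower in KD cells of c42b (-0.50), which the probe used here did not show (-0.15, adjusted p = 0.704, limma). The difference between the lines in the KD effect on TM4SF1 was 0.47 ± 0.12 log2 and did not pass (adjusted p = 0.176, limma).

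In LNCaP the protease gene MMP7, matrilysin, read 9.24, 8.92, 9.38 and 9.29 in KD cells, against 8.66 to 8.67 in the 4 NT samples. It rose by 0.54 ± 0.090 log2 (1.46-fold; adjusted p = 0.000401, limma) without overlap, and its second probe rose by 0.72. In c42b all 8 samples of these groups were below background for MMP7, at 7.29 to 7.60 in KD and 7.32 to 7.55 in NT cells. TWIST1, an EMT transcription factor, read 9.10, 9.28, 8.42 and 8.51 in KD cells, against 9.66, 9.69, 8.81 and 8.71 in NT cells of LNCaP, and fell by 0.39 ± 0.088 log2 (adjusted p = 0.0138, limma). The KD and NT samples of TWIST1 overlapped across the arms but not within either arm. The call was lost without replicate 1 of either KD arm, NT R1881 replicate 2 or NT vehicle replicate 1 (adjusted p of 0.0581 to 0.0972, limma). Within each arm the KD samples of TWIST1 overlapped the EV samples of LNCaP. These EV samples read 9.14 and 9.0 with R1881 and 8.63 and 8.48 with vehicle.

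Because the 2 control vectors differed for many genes, the called genes were also set beside EV cells of the same line. In c42b, 5 of the 9 (ANTXR1, VIM, LCP1, ACTA2 and TM4SF1) had all KD samples outside the range of the 8 control samples, in the direction of the call. For THBS1, JAG1, EZR and SDC4 the KD samples overlapped the EV samples. Within each arm, however, every KD sample of EZR lay above the EV and the NT samples. EZR read 11.405 and 11.384 in KD cells with R1881, against 11.227 and 11.372 in EV cells. With vehicle it read 11.03 and 11.14 in KD cells, against 10.83 and 10.96 in EV cells. Every KD sample of SDC4 lay, within each arm, below the EV samples and above the NT samples. SDC4 read 9.285 and 9.115 in KD cells with R1881, against 9.42 and 9.45 in EV cells. With vehicle it read 9.62 and 9.58 in KD cells, against 10.15 and 10.13 in EV cells. KD was not tested against EV. In LNCaP 3 of the 5, ANTXR1, NRP1 and MMP7, had all KD samples outside the range of the control samples, in the direction of the call. Among all genes called under KD, 42.2% in c42b and 46.2% in LNCaP lay outside both controls in this way, or 1.37% and 1.14% of all genes tested. Within each arm of LNCaP every KD sample of THBS1 was also above the EV and the NT samples, which were all below background. KD samples of TWIST1 overlapped the EV samples within each arm of LNCaP.

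**Figure D2:**
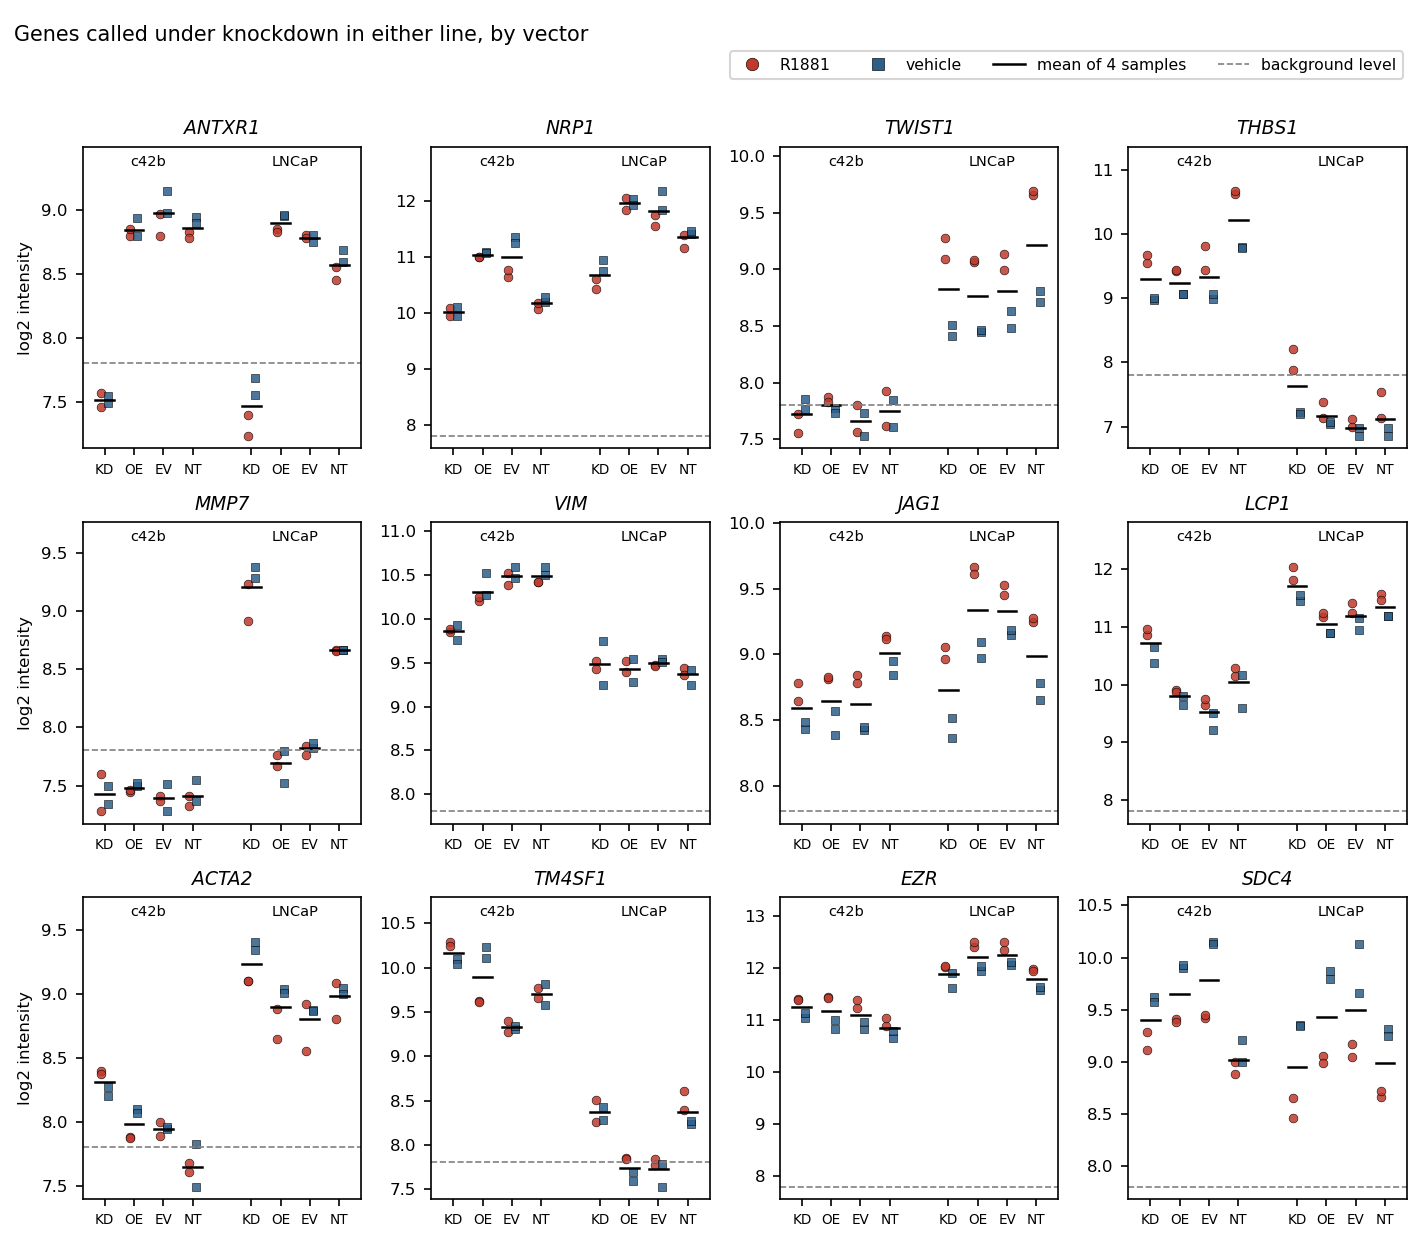
The 12 genes called under KD in either line, with log2 intensity on each y axis and the vectors KD, OE, EV and NT on each x axis, c42b left of LNCaP. Red circles are R1881 samples, blue squares vehicle samples, black lines means of 4 samples and dashed lines the background level of 7.80. ANTXR1 in KD cells lies below the line in both lines, VIM is lower in KD cells of c42b alone, and for THBS1 in c42b the NT cells sit above the other vectors of the same arm.

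Among the other role groups, 0 of 7 integrins and CD44 and 0 of 5 cadherins and epithelial identity genes were called under KD in either line by limma (in c42b 1 of each group, and in LNCaP none, had an unadjusted p under 0.05). CDH1, the gene of E-cadherin, read 11.59, 11.41, 11.67 and 11.51 in KD cells, against 11.23, 11.17, 11.33 and 11.29 in NT cells of c42b. Every KD sample was higher than NT, but the difference of 0.29 ± 0.076 log2 missed the threshold (adjusted p = 0.0578, limma). The same KD samples of CDH1 lay below every EV sample of c42b (11.91 to 12.17), so the direction depended on the control. KD was not tested against EV. In LNCaP CDH1 read 12.07, 11.94, 12.20 and 12.17 in KD cells, against 11.99, 11.96, 12.23 and 12.13 in NT cells (0.02 ± 0.076, adjusted p = 0.982, limma). PLAU, urokinase plasminogen activator, lay near background throughout. It read 7.90, 7.83, 7.77 and 7.89 in KD cells, against 7.87, 7.83, 7.69 and 7.54 in NT cells of c42b (0.12 ± 0.088, adjusted p = 0.802, limma). In LNCaP it read 7.94, 7.64, 7.76 and 7.73 in KD cells, against 7.65, 7.75, 7.74 and 7.83 in NT cells (0.02 ± 0.088, adjusted p = 0.978, limma). TSPAN15, a tetraspanin partner of the ADAM10 protease, also overlapped between KD and NT cells, with 8.49, 8.51, 8.94 and 8.79 against 8.53, 8.57, 8.65 and 9.06 in c42b (adjusted p = 0.984, limma) and 8.19, 8.15, 8.16 and 8.31 against 8.03, 8.25, 8.16 and 8.03 in LNCaP (adjusted p = 0.902, limma).

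Whether a KD effect differed between the R1881 and vehicle arms was tested within each line. In c42b 1 of the 42 genes was called, where 0.00998% of all genes were: ITGA3, a subunit of the laminin-binding integrin α3β1. In the R1881 arm it read 8.22 and 8.02 in KD cells, against 7.67 and 7.75 in NT cells, and in the vehicle arm 7.57 and 7.75 in KD cells, against 8.10 and 8.09 in NT cells. KD was thus higher with R1881 and lower with vehicle, a difference between arms of 0.85 ± 0.17 log2 (adjusted p = 0.0202, limma). The adjusted p was 0.0579 to 0.177 without either NT R1881 sample, either NT vehicle sample, KD R1881 replicate 1 or KD vehicle replicate 1. The second probe of ITGA3 did not carry the difference (0.05, not called). In LNCaP 0 of the 42 were called by limma, where 0.0299% of all genes were, and 2 had an unadjusted p under 0.05. Of these, SNAI2, the EMT factor Slug, read 8.81 and 8.59 in KD cells, against 8.32 and 8.06 in NT cells with R1881, and 7.53 and 7.65 in KD cells, against 7.93 and 7.81 in NT cells with vehicle (0.78 ± 0.18, adjusted p = 0.0946, limma).

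Cells labelled OE were compared with EV cells, with the limit that their GABPA probe was not raised. In c42b 1 of the 42 genes (2.38%) was called, where 0.15% of all genes were, and in LNCaP 1 (2.38%), where 0.0449% were. TM4SF1 read 9.62, 9.61, 10.11 and 10.23 in cells labelled OE, against 9.40, 9.28, 9.30 and 9.35 in EV cells of c42b. All 4 OE samples lay above all EV samples, and the vehicle samples were the higher ones. TM4SF1 rose by 0.56 ± 0.084 log2 (1.48-fold; adjusted p = 9.31e-05, limma), by 0.28 in the R1881 arm and 0.85 in the vehicle arm, and the arms were not shown to differ (-0.57 ± 0.17, adjusted p = 0.376, limma). In LNCaP, where TM4SF1 lay at background, it read 7.85, 7.84, 7.59 and 7.69 in cells labelled OE, against 7.84, 7.77, 7.78 and 7.53 in EV cells (adjusted p = 0.991, limma), and the difference between lines of 0.55 ± 0.12 log2 missed the threshold (adjusted p = 0.0546, limma). TM4SF1 was thus higher in both KD and OE-labelled cells of c42b, each against its own control.

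TSPAN15 was the gene called in LNCaP. It read 7.85, 7.47, 7.80 and 7.61 in cells labelled OE, against 8.39, 8.19, 8.14 and 7.99 in EV cells, and fell by 0.49 ± 0.10 log2 (adjusted p = 0.00631, limma) without overlap. Only 1 of the 4 OE samples was above background, so no fold is given. The call was lost without EV R1881 replicate 1 (adjusted p = 0.0554), OE R1881 replicate 2 (0.0859) or OE vehicle replicate 2 (0.0503). In c42b it read 8.19, 8.22, 8.47 and 8.39 in cells labelled OE, against 8.14, 8.33, 8.63 and 8.28 in EV cells (adjusted p = 0.979, limma), and the difference between lines was not called (0.46 ± 0.14, adjusted p = 0.435, limma).

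CDH1, VIM and PLAU overlapped between OE-labelled and EV cells in both lines. CDH1 read 12.04, 11.996, 12.01 and 12.08 in OE-labelled cells, against 11.99, 11.91, 12.17 and 12.04 in EV cells of c42b, and 12.16, 12.18, 12.27 and 12.22, against 12.10, 12.08, 12.43 and 12.27, in LNCaP. VIM read 10.20, 10.25, 10.52 and 10.27 in OE-labelled cells, against 10.39, 10.52, 10.46 and 10.60 in EV cells of c42b (-0.18 ± 0.094, adjusted p = 0.599, limma), and 9.39, 9.52, 9.28 and 9.55, against 9.48, 9.46, 9.55 and 9.51, in LNCaP. None of these differences was called. PLAU read 7.86, 7.66, 7.90 and 8.0 in OE-labelled cells, against 8.02, 7.76, 8.08 and 7.81 in EV cells of c42b, and 7.65, 7.67, 7.80 and 7.94, against 7.77, 7.82, 7.71 and 7.86, in LNCaP. Of the 42 genes, 2 in c42b and 1 in LNCaP had an unadjusted p under 0.05 in this comparison. None was called for a difference between arms (0.015% of all genes in c42b and 0% in LNCaP; 2 of the 42 with an unadjusted p under 0.05 in each line) or between lines (0.015% of all genes; 4 of the 42).

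R1881 against vehicle in control cells addressed the androgen response of these genes. In c42b 6 of the 42 (14.3%) were called, 4 higher and 2 lower with R1881, where 1.55% of all genes were called (0.943% higher and 0.609% lower). In LNCaP 4 (9.52%) were called, 3 higher and 1 lower, where 2.97% were (1.65% higher and 1.32% lower). Among genes above background the shares were 22.2% of the 27 and 2.87% of all in c42b, and 14.8% and 5.53% in LNCaP. For this comparison the 2 EV samples are given before the 2 NT samples. SNAI2 read 8.75, 8.76, 8.91 and 9.21 with R1881, against 7.70, 7.87, 7.75 and 7.71 with vehicle in c42b. Every R1881 sample of c42b was above background and 1 vehicle sample was, and SNAI2 rose by 1.15 ± 0.091 log2 (adjusted p = 3.93e-10, limma). This rise of SNAI2 is given no fold because the vehicle samples lay mostly below background. In LNCaP it read 8.10, 8.02, 8.32 and 8.06 with R1881, against 7.88, 7.79, 7.93 and 7.81 with vehicle, higher in all R1881 samples but not called (0.28 ± 0.091, adjusted p = 0.209, limma). The second probe of SNAI2 was called higher in both lines, by 2.67 in c42b and 1.41 in LNCaP, so the line in which SNAI2 passed depended on the probe. The response differed between the lines on either probe, by 0.87 ± 0.13 log2 (adjusted p = 0.000515, limma) on the first and 1.26 on the second, c42b minus LNCaP, where 0.304% of all genes were called.

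TWIST1 showed the converse. In LNCaP it read 9.14, 9.0, 9.66 and 9.69 with R1881, against 8.63, 8.48, 8.81 and 8.71 with vehicle, and rose by 0.71 ± 0.088 log2 (1.64-fold; adjusted p = 3.72e-06, limma) without overlap, by 0.51 in EV and 0.91 in NT cells. In c42b TWIST1 lay around background, at 7.57, 7.80, 7.92 and 7.62 with R1881, against 7.73, 7.53, 7.61 and 7.85 with vehicle. The difference between lines was -0.66 ± 0.12 log2, c42b minus LNCaP (adjusted p = 0.013, limma). Leaving out 1 of 6 samples raised that adjusted p to 0.0507 to 0.0737: EV R1881 replicate 1 or EV vehicle replicate 2 of LNCaP, or EV R1881 replicate 1, EV vehicle replicate 1, NT R1881 replicate 2 or NT vehicle replicate 2 of c42b.

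Of the surface receptors, SDC4 fell and JAG1 rose with R1881 in both lines. SDC4 read 9.17, 9.05, 8.66 and 8.72 with R1881, against 9.66, 10.13, 9.31 and 9.25 with vehicle in LNCaP, a decrease of 0.69 ± 0.088 log2 (adjusted p = 6.74e-06, limma). In c42b it read 9.42, 9.45, 9.0 and 8.88 with R1881, against 10.15, 10.13, 8.99 and 9.21 with vehicle, and fell by 0.43 ± 0.088 log2 (adjusted p = 0.00489, limma). The decrease of SDC4 in c42b was -0.70 in EV and -0.16 in NT cells, and without NT vehicle replicate 2 the call was lost (adjusted p = 0.0545). JAG1 read 9.53, 9.45, 9.24 and 9.28 with R1881, against 9.15, 9.18, 8.78 and 8.65 with vehicle in LNCaP, and rose by 0.44 ± 0.076 log2 (adjusted p = 0.000757, limma) without overlap. In c42b JAG1 read 8.78, 8.84, 9.14 and 9.12 with R1881, against 8.42, 8.45, 8.84 and 8.95 with vehicle, and rose by 0.30 ± 0.076 log2 (adjusted p = 0.0378, limma). R1881 samples were higher within each vector, and overlap arose between vectors.

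THBS1 read 9.81, 9.44, 10.63 and 10.67 with R1881, against 8.99, 9.06, 9.80 and 9.79 with vehicle in c42b, and rose by 0.73 ± 0.096 log2 (1.66-fold; adjusted p = 1.09e-05, limma), by 0.60 in EV and 0.85 in NT cells. EZR rose by 0.32 ± 0.081 log2 in c42b, with 11.23, 11.37, 10.89 and 11.03 with R1881, against 10.83, 10.96, 10.65 and 10.78 with vehicle (adjusted p = 0.0426, limma). In LNCaP EZR read 12.33, 12.50, 11.98 and 11.94 with R1881, against 12.04, 12.11, 11.56 and 11.63 with vehicle, and rose by 0.35 ± 0.081 log2 (adjusted p = 0.0184, limma). The R1881 samples of EZR were higher within each vector of both lines. NRP1 fell in c42b by 0.36 ± 0.090 log2, with 10.64, 10.76, 10.06 and 10.18 with R1881, against 11.35, 11.24, 10.19 and 10.29 with vehicle (adjusted p = 0.0406, limma), by -0.60 in EV and -0.12 in NT cells. The second probe of NRP1 did not show this fall.

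The weaker of these calls rested on the full set of samples. In c42b the calls of JAG1 and NRP1 were lost whichever of the 8 samples was left out, with adjusted p up to 0.175 and 0.185, and that of EZR without any sample but EV R1881 replicate 1 (up to 0.206). The number of the 42 genes called in c42b was 2 without NT vehicle replicate 2, 3 without EV R1881 replicate 2, either EV vehicle sample or either NT R1881 sample, and 4 without either of the other 2 samples. In LNCaP the call of EZR was lost without EV R1881 replicate 2, EV vehicle replicate 1, either NT R1881 sample or NT vehicle replicate 1 (adjusted p 0.0516 to 0.123).

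**Figure D3:**
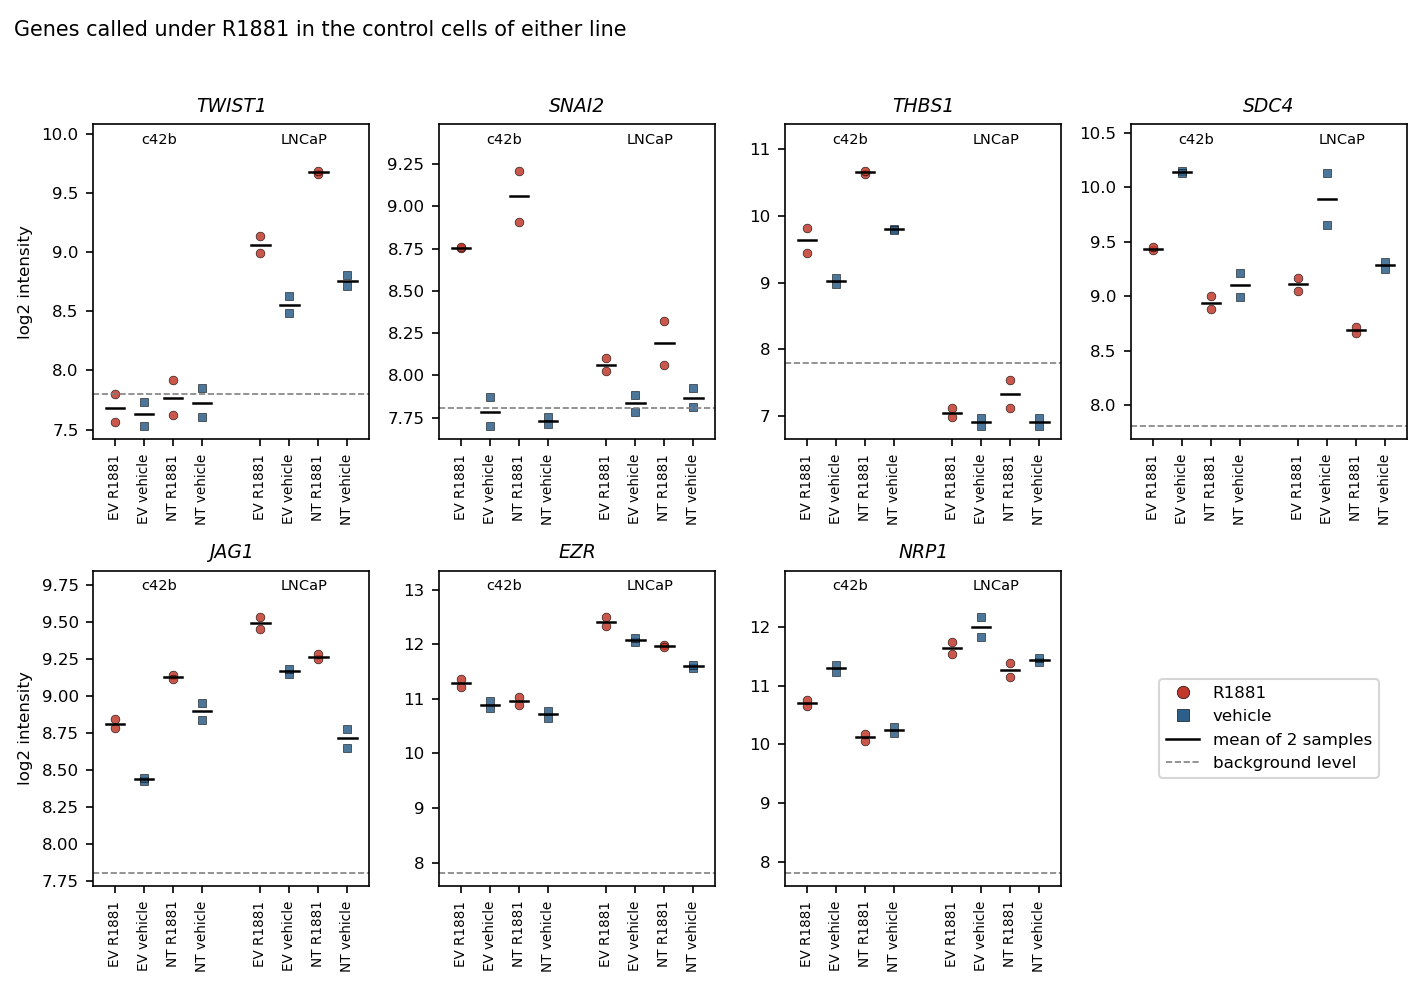
The 7 genes called under R1881 in control cells of either line, with log2 intensity on each y axis and vector and arm on each x axis, c42b left of LNCaP. Red circles are R1881 samples, blue squares vehicle samples, black lines means of 2 samples and dashed lines the background level of 7.80. SNAI2 is highest in R1881 samples of c42b, at 8.75 to 9.21, and TWIST1 in R1881 samples of LNCaP, at 9.0 to 9.69.

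Genes outside this response, over the same samples, were VIM, CDH1, PLAU, TM4SF1 and TSPAN15. CDH1 read 12.10, 12.08, 11.99 and 11.96 with R1881, against 12.43, 12.27, 12.23 and 12.13 with vehicle in LNCaP, lower in every R1881 sample but not called (-0.23 ± 0.076, adjusted p = 0.195, limma), and differed by -0.13 in c42b (adjusted p = 0.668, limma). VIM differed by -0.10 ± 0.094 log2 in c42b and by 0.00 in LNCaP, and PLAU by 0.09 and -0.04. TM4SF1 differed by 0.01 in c42b and 0.20 in LNCaP, and TSPAN15 by -0.26 and 0.14, each with overlapping groups.

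The comparison of c42b with LNCaP addressed how the castration-resistant line differed from its parent line. It called 17 of the 42 genes (40.5%), 9 higher and 8 lower in c42b, where 28.6% of all genes were called (14.9% higher and 13.7% lower). Among genes above background the shares were 63% of the 27 and 51.7% of all. THBS1 read 8.99 to 10.67 (median 9.80) in the 8 c42b control samples and 6.85 to 7.54 (median 6.98) in the 8 LNCaP samples, and every LNCaP sample was below background. It was 2.72 ± 0.068 log2 higher in c42b (adjusted p = 2.68e-24, limma), at least 3.92-fold. TM4SF1 read 9.28 to 9.82 (median 9.49) in c42b and 7.53 to 8.6 (median 8.04) in LNCaP, and was 1.47 ± 0.060 log2 higher (2.76-fold; adjusted p = 8.82e-19, limma). VIM read 10.39 to 10.60 (median 10.48) in c42b and 9.25 to 9.55 (median 9.45) in LNCaP, 1.06 ± 0.066 log2 higher (2.08-fold; adjusted p = 4.85e-14, limma). These 3 genes did not overlap between the lines, and the difference held in each vector and arm. ESRP1, an epithelial splicing regulator, read 8.37 to 9.03 (median 8.54) in c42b and 8.10 to 8.41 (median 8.25) in LNCaP (0.42 ± 0.060 higher, adjusted p = 1.69e-06, limma), with 0.85 and 0.61 in the R1881 and vehicle arms of EV cells but 0.08 and 0.15 in those of NT cells.

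Both actin linkers were lower in c42b. LCP1 read 9.22 to 10.29 (median 9.70) in c42b and 10.95 to 11.57 (median 11.21) in LNCaP, -1.48 ± 0.073 log2 (2.80-fold; adjusted p = 9.86e-17, limma). EZR read 10.65 to 11.37 (median 10.93) in c42b and 11.56 to 12.50 (median 12.01) in LNCaP, -1.04 ± 0.057 log2 (2.06-fold; adjusted p = 1.82e-15, limma). TWIST1 read 7.53 to 7.92 (median 7.68) in c42b and 8.48 to 9.69 (median 8.90) in LNCaP, -1.31 ± 0.062 log2 (adjusted p = 4.44e-17, limma). It is given no fold because c42b lay mostly below background. ACTA2 read 7.49 to 8.0 (median 7.85) in c42b and 8.55 to 9.09 (median 8.90) in LNCaP, -1.10 ± 0.063 log2 (2.14-fold; adjusted p = 5.33e-15, limma). No sample of these 4 genes overlapped between the lines, although 3 of 8 c42b samples for TWIST1 and 5 of 8 for ACTA2 were above background. The mesenchymal markers thus did not share a direction, since VIM was higher and ACTA2 lower in c42b.

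The other called differences between the lines were smaller or uneven over the control vectors. NRP1 (-1.0), MMP7 (-0.84), CDH1 (-0.51) and JAG1 (-0.34) were lower in c42b, and TSPAN15 (0.38), SNAI2 (0.34), ANTXR1 (0.24), TIMP2 (0.20) and EPCAM (0.19) were higher. MMP7 was below background in all 8 c42b samples (7.28 to 7.55) and read 7.76 to 8.67 in LNCaP, at least 1.36-fold lower in c42b. That bound came mainly from NT cells, since LNCaP samples read 8.66 to 8.67 in NT cells but 7.76 to 7.87, around background, in EV cells. CDH1 read 11.17 to 12.17 (median 11.62) in c42b and 11.96 to 12.43 (median 12.11) in LNCaP, with overlap. The CDH1 difference was -0.77 and -0.87 in the 2 arms of NT cells but -0.14 and -0.24 in those of EV cells. SNAI2 was higher in c42b in the R1881 arms (0.69 in EV and 0.87 in NT cells) and not in the vehicle arms (-0.05 and -0.14), and JAG1 in NT cells with vehicle ran the other way (0.18). TSPAN15 and TIMP2 were not higher in EV cells with R1881 (-0.05 each), and EPCAM differed by 0.26 and 0.45 in the R1881 and vehicle arms of EV cells but by 0.02 in each arm of NT cells. PLAU read 7.54 to 8.08 (median 7.82) in c42b and 7.65 to 7.86 (median 7.76) in LNCaP and was not called (adjusted p = 0.643, limma), and TSPAN15 read 8.14 to 9.06 (median 8.55) in c42b and 7.99 to 8.39 (median 8.15) in LNCaP.

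The EPCAM call was lost without 1 of 11 of the 16 samples (adjusted p up to 0.134) and the TIMP2 call without 1 of 9 (up to 0.172). For EPCAM the exceptions, whose removal kept the call, were EV R1881 replicate 1, EV vehicle replicate 1 and NT vehicle replicate 2 of LNCaP and NT R1881 replicate 1 and NT vehicle replicate 2 of c42b. For TIMP2 they were EV R1881 replicate 1, EV vehicle replicate 2 and NT vehicle replicate 1 of LNCaP and EV R1881 replicate 1, EV vehicle replicate 2, NT R1881 replicate 2 and NT vehicle replicate 1 of c42b. Of 10 fibroblast markers 2 were called higher in c42b. The mean over the 10 probes ran from 7.59 to 7.69 in c42b and 7.49 to 7.66 in LNCaP control samples, below background in all, and its part in these differences was not tested.

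**Figure D4:**
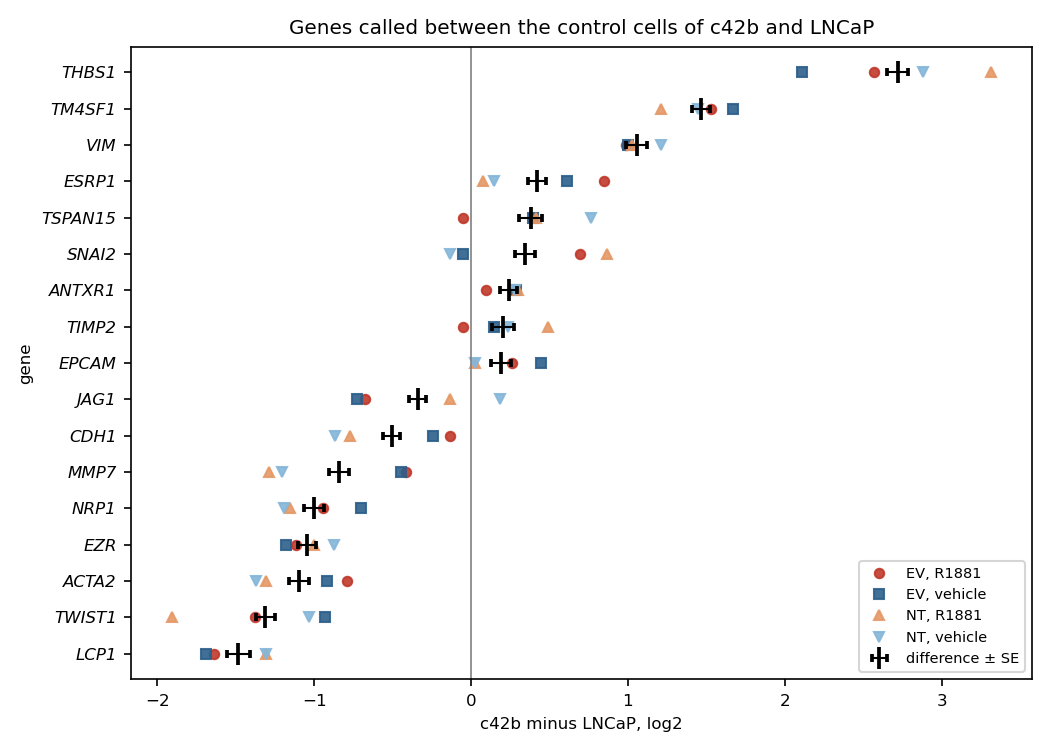
Difference of c42b minus LNCaP on the x axis, in log2, for the 17 genes called in that comparison (y axis). Coloured symbols are the differences within EV or NT cells with R1881 or vehicle (2 samples a side each), and black marks with bars are the fitted difference ± SE. THBS1 and LCP1 end the range, at 2.72 and -1.48, while symbols for CDH1, ESRP1, SNAI2 and MMP7 separate by vector or arm.

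The 2 control vectors were compared because KD and OE were each set against only 1 of them. EV cells differed from NT cells in 14 of the 42 genes in c42b (33.3%; 9 higher and 5 lower in EV), where 18% of all genes were called (9.58% higher and 8.43% lower), and in 10 in LNCaP (23.8%; 7 higher and 3 lower), where 11.9% were (6.17% higher and 5.76% lower). Among genes above background the shares were 51.9% of the 27 and 33.6% of all in c42b, and 37% and 22.3% in LNCaP. EV and NT cells differ by label in their vector and as stable cell populations, and these cannot be told apart. This comparison shares its NT samples with the KD comparison and its EV samples with the OE comparison. Among the surface receptors, NRP1 read 10.64, 10.76, 11.35 and 11.24 in EV cells, against 10.06, 10.18, 10.19 and 10.29 in NT cells of c42b, 0.82 ± 0.090 log2 higher (adjusted p = 4.54e-08, limma). In LNCaP NRP1 read 11.54, 11.75, 12.16 and 11.84 in EV cells, against 11.39, 11.15, 11.40 and 11.47 in NT cells (0.47 ± 0.090, adjusted p = 0.000387, limma). SDC4 read 9.42, 9.45, 10.15 and 10.13 in EV cells, against 9.0, 8.88, 8.99 and 9.21 in NT cells of c42b (0.77 ± 0.088, adjusted p = 1.01e-07, limma), and 9.17, 9.05, 9.66 and 10.13, against 8.66, 8.72, 9.31 and 9.25, in LNCaP (0.51 ± 0.088, adjusted p = 7.8e-05, limma). Both genes were higher in EV cells of each arm of each line.

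The epithelial genes differed in c42b. CDH1 read 11.99, 11.91, 12.17 and 12.04 in EV cells, against 11.23, 11.17, 11.33 and 11.29 in NT cells of c42b, 0.77 ± 0.076 log2 higher (1.71-fold; adjusted p = 5.21e-09, limma). ESRP1 read 9.02, 9.03, 8.64 and 8.97 in EV cells, against 8.38, 8.45, 8.43 and 8.37 in NT cells (0.51 ± 0.085, adjusted p = 6.48e-05, limma), and EPCAM was 0.35 higher. EV cells of CDH1, ESRP1 and EPCAM did not overlap NT cells, and none of the 3 was called in LNCaP. JAG1 was called in both lines in opposite directions, with 8.78, 8.84, 8.42 and 8.45 in EV cells, against 9.14, 9.12, 8.84 and 8.95 in NT cells of c42b (-0.39 ± 0.076, adjusted p = 0.000439, limma), and 9.53, 9.45, 9.15 and 9.18, against 9.24, 9.28, 8.78 and 8.65, in LNCaP (0.34 ± 0.076, adjusted p = 0.00212, limma). The difference between lines was not tested for this comparison.

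THBS1 was 0.90 ± 0.096 log2 lower in EV than in NT cells of c42b by the values given above (adjusted p = 2.52e-08, limma). LCP1 read 9.65, 9.74, 9.22 and 9.52 in EV cells, against 10.15, 10.29, 10.17 and 9.59 in NT cells of c42b (-0.52 ± 0.10, adjusted p = 0.00051, limma). TM4SF1 was lower in EV cells of both lines, at 9.40, 9.28, 9.30 and 9.35, against 9.77, 9.66, 9.82 and 9.58 in NT cells of c42b (-0.37 ± 0.084, adjusted p = 0.00237, limma), and 7.84, 7.77, 7.78 and 7.53, against 8.40, 8.6, 8.24 and 8.27 in NT cells of LNCaP (-0.65 ± 0.084, adjusted p = 1.1e-06, limma). The EV cells of TM4SF1 lay below every NT sample in each line, and in LNCaP only 1 of them was above background. The TM4SF1 increases under KD in c42b and in OE-labelled cells of c42b were therefore measured from control means of 9.33 in EV and 9.71 in NT cells.

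In LNCaP, TIMP2, an inhibitor of metalloproteinases, read 10.57, 10.44, 10.44 and 10.90 in EV cells, against 9.69, 9.71, 10.23 and 9.88 in NT cells, 0.71 ± 0.10 log2 higher (adjusted p = 4.15e-06, limma). MMP7 read 7.84, 7.76, 7.82 and 7.87 in EV cells, against 8.66 to 8.67 in the 4 NT samples, a difference of -0.84 ± 0.090 log2 (adjusted p = 2.93e-08, limma). EZR was 0.47 ± 0.081 log2 higher in EV (12.33, 12.50, 12.04 and 12.11) than in NT cells (11.98, 11.94, 11.56 and 11.63; adjusted p = 9.76e-05, limma), and TWIST1 was lower, at 9.14, 9.0, 8.63 and 8.48, against 9.66, 9.69, 8.81 and 8.71 in NT cells (-0.41 ± 0.088, adjusted p = 0.00149, limma). TIMP2, MMP7 and EZR did not overlap between the vectors. For MMP7 in LNCaP the order was KD above NT above EV, with the cells labelled OE (7.53 to 7.80) beside EV.

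The remaining calls between control vectors were TAGLN (0.37), an actin-binding protein, and ITGA3 (0.32) in LNCaP, and TIMP2 (0.39), ITGA3 (0.35), ACTA2 (0.30), EZR (0.26) and TSPAN15 (-0.36) in c42b. Several were lost without single samples: in c42b ACTA2 (5 of 8 samples, adjusted p up to 0.201), EZR (4, up to 0.163), TSPAN15 (4, up to 0.177), TIMP2 (3, up to 0.0823) and EPCAM (2, up to 0.0703), and in LNCaP TAGLN (4, up to 0.0894) and ITGA3 (NT R1881 replicate 2, 0.0827). The samples were, for ACTA2, EV R1881 replicate 2, both EV vehicle samples and replicate 1 of each NT arm. For EZR they were replicate 2 of each EV arm and replicate 1 of each NT arm, and for TSPAN15 EV R1881 replicate 1, EV vehicle replicate 2 and replicate 2 of each NT arm. For TIMP2 they were EV R1881 replicate 2, EV vehicle replicate 1 and NT R1881 replicate 2, for EPCAM NT R1881 replicate 1 and NT vehicle replicate 2, and for TAGLN replicate 2 of each EV arm, NT R1881 replicate 2 and NT vehicle replicate 1. ITGA3 rested on 1 probe, since its second probe gave differences of the other sign that were not called (-0.08 in c42b and -0.12 in LNCaP). VIM and PLAU were not called between the control vectors in either line on the probes used here, and the second probe of VIM was called in LNCaP (0.47).

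**Figure D5:**
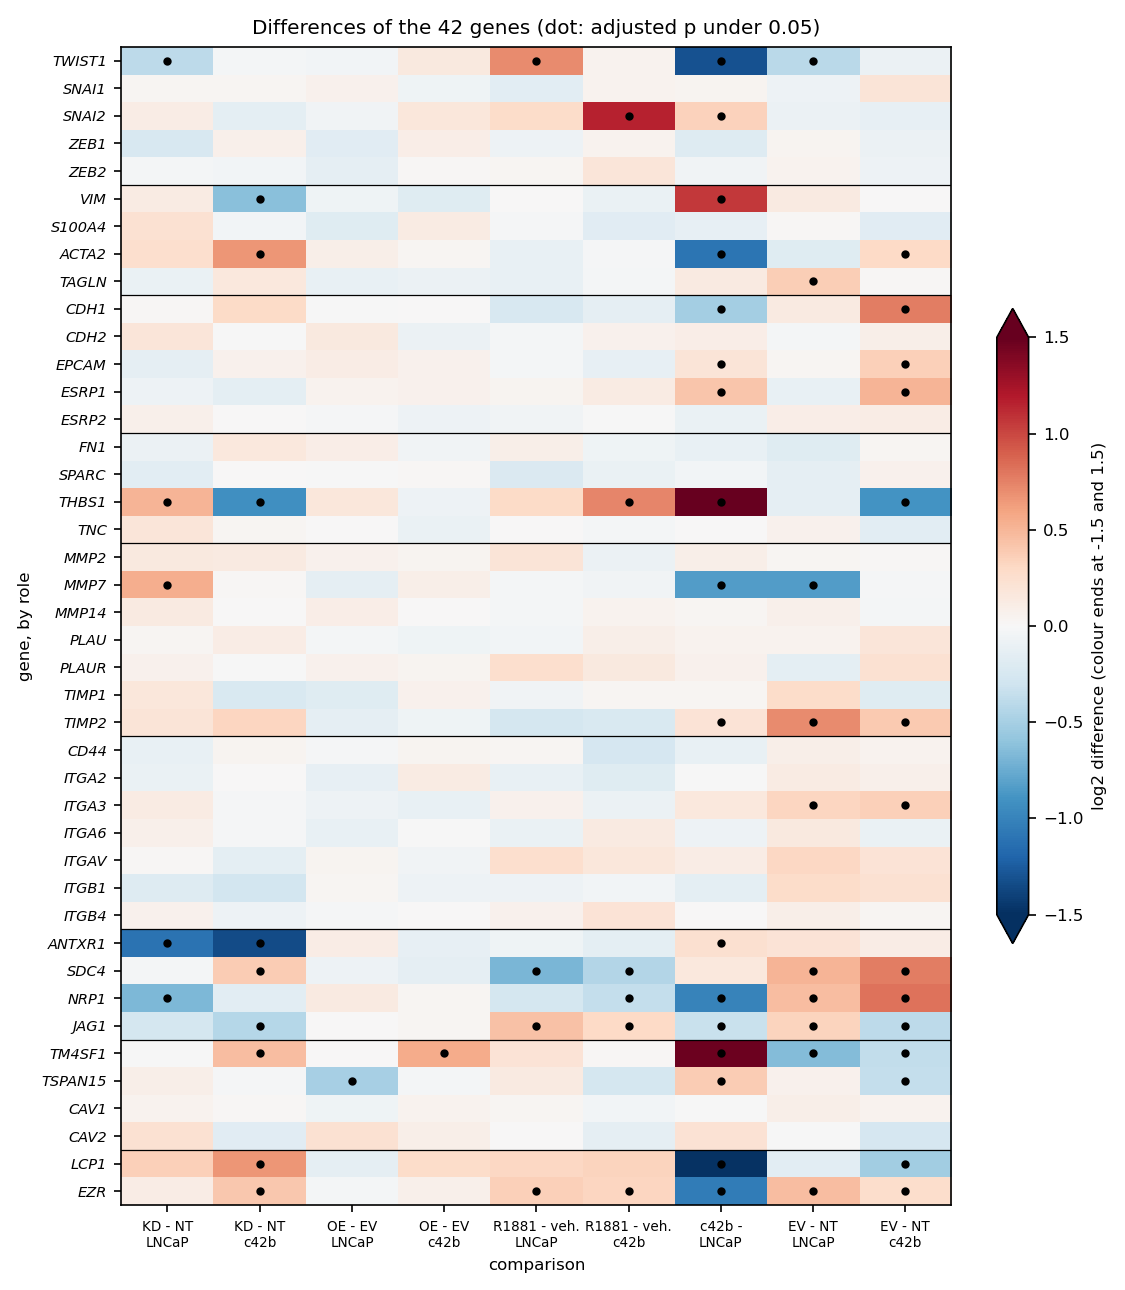
Log2 difference of each of the 42 genes (y axis, grouped by role) in the 9 comparisons (x axis), from blue for lower to red for higher in the group named first, with colour ending at -1.5 and 1.5. A dot marks an adjusted p under 0.05. The 2 columns of OE-labelled against EV cells hold 1 dot each, ANTXR1 is the only gene with a dot in the same direction in both KD columns, and the column of c42b against LNCaP holds 17 dots.

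Wider lists of genes of the same pathways, which share no gene with the 42, were read in the same fits. Of 58 further integrins, proteases and adhesion receptors, KD called 2 higher and 0 lower in c42b (3.45%) and 4 higher and 1 lower in LNCaP (8.62%), beside 3.25% and 2.46% of all genes. The transmembrane serine proteases hepsin (HPN, 0.64 ± 0.087) and TMPRSS2 (0.58 ± 0.092) rose in KD cells of c42b, while in LNCaP syndecan-1 (SDC1, 0.38 ± 0.096) and plastin-1 (PLS1, at least 1.35-fold, with 0 of 4 NT samples above background) rose and the membrane-type metalloproteinase MMP16 fell by 0.67 ± 0.094. Of 38 further matrix and mesenchymal genes 0 higher and 1 lower were called in c42b (SERPINE2, a serine protease inhibitor, -0.46), and 1 higher and 0 lower in LNCaP (LAMB1, laminin β1, given no fold because 0 of 4 NT and 2 of 4 KD samples were above background), or 2.63% in each line, near the share of all genes. Of 26 further junction and epithelial genes 1 rose (TJP1, zonula occludens-1, 0.35) and 1 fell (DSG2, desmoglein-2, -0.36) in c42b, and 1 rose (DSC2, desmocollin-2, 0.75) and 0 fell in LNCaP, or 7.69% and 3.85%. These KD calls were made against NT cells and were not set beside EV cells. The control vectors were uneven for some of them. Between c42b and LNCaP, HPN differed by -0.26 and -0.21 in the R1881 and vehicle arms of EV cells but by -1.22 and -1.02 in those of NT cells. TJP1 differed by 1.42 and 0.86 in EV cells but by 0.41 and 0.50 in NT cells. In OE-labelled cells 1 gene of these lists was called, TMPRSS2 in c42b (0.40 ± 0.092).

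With R1881, TMPRSS2, a classical androgen target, rose by 1.51 ± 0.092 log2 in c42b and 2.62 ± 0.092 in LNCaP. GRHL2, a transcription factor of epithelial identity, rose by 1.45 in c42b and 1.64 in LNCaP, and laminin γ1 (LAMC1) by 0.68 and 1.01. ELF3, an epithelial ETS factor, fell by 0.45 in c42b and by 0.53 in LNCaP. The fall of MMP16 (-0.90) and of COL5A2, at least 1.21-fold lower with 0 of 4 R1881 samples above background, and the rise of vinculin (VCL, 0.55) passed in LNCaP, and the fall of cingulin (CGN, -0.46) and CALD1 (-0.36) and the rise of TPM1 (0.43) passed in c42b. Between the lines 11 of 26 junction and epithelial genes (42.3%), 12 of 38 matrix and mesenchymal genes (31.6%) and 24 of 58 integrins, proteases and receptors (41.4%) were called, beside 28.6% of all genes. Among them TJP1 (0.80), JUP (0.57), COL5A1 (1.09, with 4 of 8 LNCaP samples above background), TPM2 (at least 1.47-fold, with 0 of 8), TSPAN13 (0.83) and FSCN1 (0.68) were higher, and DSC2 (-1.26), OVOL2 (-0.78), CALD1 (-0.97), MMP16 (-0.97) and ADAM9 (-0.71) lower, in c42b. COL5A2 was also called lower in c42b, with 0 of 8 c42b and 4 of 8 LNCaP samples above background, and is given no fold.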

How the data were processed

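RNA of 32 samples was read on 36 Illumina HT-12 arrays. Per the study's methods the authors corrected bead-level images (BASH, HULK). Linear intensity values per array were deposited, with 94 missing, array medians of 178.3 to 225.0 and a range of 11.0 to 48869; a deposited table of log2, quantile-normalised values from the authors was used as an alternative. Genome build and scanner background correction were not given in the sources used here. Here intensities were log2-transformed and quantile-normalised over the 47231 probes, and the 4 repeat arrays were averaged with their samples. Of the probes, 30113 named 1 gene, giving 20046 genes; symbols were updated by gene identifier. Group means of the 32 samples were estimated together in limma 3.58.1 (R 4.3.3) with moderated variances, and Benjamini-Hochberg adjustment ran jointly within 4 families: KD, OE and R1881; lines; control vectors; and differences between differences. The threshold was 0.05. Samples were grouped by their labels.

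The 42 genes and the related lists were chosen with earlier results of these data known. Values per sample are given for called genes, all where 6 or fewer were called and otherwise the 4 highest and 4 lowest, and for PLAU, CDH1, VIM, TM4SF1 and TSPAN15 in any case; of related lists up to 2 higher and 2 lower called genes are named. SNAI2 in the LNCaP arms and ITGA3 on its second probe were named after their values were seen. The number of arrays limits the precision. Alternatives were other background corrections, scalings, probes and adjustments, single arms, single lines, a replicate block and leaving out each sample; the second brightest probe was added after seeing the data.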

Additional observations from a re-analysis of the deposited data

Results flagged for a closer look

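5 of the 42 genes had an effect that differed between lines or arms by a test of the difference itself (limma, adjusted p under 0.05). The difference of KD from NT differed between c42b and LNCaP for THBS1 (-1.43 log2) and VIM (-0.75 log2). For THBS1 the KD samples of c42b lay beside EV, and the NT samples of LNCaP were all below background. The difference of KD from NT for ITGA3 in c42b differed between the R1881 and vehicle arms (0.85 log2). That call was lost without 6 of 8 samples left out singly, and the second probe did not carry it. The R1881 response differed between c42b and LNCaP for SNAI2 (0.87 log2) and TWIST1 (-0.66 log2). The TWIST1 call was lost without 6 of 16 samples left out singly, and TWIST1 lay around background in c42b.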

How the results depend on the processing

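Over 72 called differences of the 42 genes and their alternatives (1444 values), 1269 kept direction and call, 170 kept direction and lost the call, and 5 reversed. These values include the fits without single samples. Smaller shares kept direction and call on the second brightest probe (18 of 32), in the R1881 arm alone (34 of 57) and in the vehicle arm alone (39 of 57). The replicate block kept all 72, with 5 and 10 genes called under KD in LNCaP and c42b, against 5 and 9 without it; of 16 pairs of same-numbered samples 3 correlated above 0.1, so the numbers were not taken to pair samples. The reversed values were SNAI2 for c42b minus LNCaP in the vehicle arm alone (-0.094) and, on the second brightest probe, NRP1 for R1881 in c42b (0.0012), TAGLN for EV minus NT in LNCaP (-0.032) and ITGA3 for EV minus NT in LNCaP (-0.12) and c42b (-0.078). With median centring 3 genes were called for R1881 in c42b, with brighter probes only 10 differences between differences, and with adjustment within a comparison 0 for OE in LNCaP. The R1881 arm alone called 3 for KD in LNCaP, 5 for KD in c42b, 0 for OE in either line and 7 for EV minus NT in c42b; the vehicle arm alone called 3, 4, 0 for OE in LNCaP and 8. Leaving out single samples gave 4 to 5 called for KD in LNCaP, 8 to 10 for KD in c42b, 0 to 1 for OE in LNCaP, 1 for OE in c42b, 3 to 4 and 2 to 4 for R1881 in LNCaP and c42b, 15 to 18 for the lines, 8 to 11 and 11 to 13 for EV minus NT in LNCaP and c42b, and 3 to 6 differences between differences, the 3 without replicate 2 of the NT R1881 or the NT vehicle samples of c42b. The causes of these changes were not tested. Array number and signals near background limit the weaker calls.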
